A study of Mus musculus with 4 samples.

Results

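The cells described here are Runx1-positive emerging blood progenitors, 243 of 20836 cells kept from 4 single-cell libraries of mouse embryonic aorta. They were chosen by their own transcripts: at least 1 UMI of Runx1, at least 2 UMIs of Spi1, Myb and Ptprc together, and fewer than 3 of the platelet genes Pf4, Gp9, Gp1bb, Ppbp and Itga2b. A UMI is a tag that marks 1 captured RNA molecule. Cells were kept at 1000 or more genes and under 10% mitochondrial UMIs. The libraries gave 93 and 62 of these cells in the KO embryos and 28 and 60 in the WT embryos. They were set beside the 17691 cells with a Cdh5 UMI and no Runx1 UMI (Cdh5+ Runx1-negative cells, or Runx1-negative cells for short), and beside 619 cells with both Cdh5 and Runx1 but fewer than 2 UMIs of the blood genes.

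The KO embryos were described as mir-223 -/-, and the WT embryos were wild type and of matched age. The gene lies on chromosome X, and the number of alleles in each embryo was not tested. All were at embryonic day 10.5, and cells were sorted from the aorta-gonad-mesonephros region (AGM) for the endothelial protein CD31 and against the blood protein CD45. Each genotype has 2 libraries made with the 10x Genomics 3' kit. No driver or cell type is named that would limit the loss to part of the embryo. The labels do not say how many embryos went into a library, or their litter or strain. Tests across libraries therefore gauge the spread among these 4 libraries alone, and that spread may be technical. The series title names the question, whether miR-223 limits the making of hemogenic endothelium and of myeloid cells.

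In the AGM, endothelial cells of the aortic wall turn on the transcription factor Runx1, become hemogenic endothelium, and round up into clusters from which blood stem and progenitor cells are released. Spi1 (PU.1) and Myb are transcription factors that follow Runx1 in this step, and Gfi1 and Gfi1b are repressors that shut down the endothelial programme. CD45, encoded by Ptprc, appears late, so a sort against CD45 keeps the cells caught before or during that change. MiR-223 is a microRNA abundant in myeloid cells, where it restrains granulocyte production.

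The microRNA removed in the KO embryos gives 2 mature strands. Their sequences are shown with the seed, bases 2 to 8, in capitals, because the seed sets which transcripts a microRNA pairs with. They lie on chromosome X at chrX:96242842-96242864 and chrX:96242884-96242905, plus strand, in RefSeq build GRCm38.p6.
mmu-miR-223-5p: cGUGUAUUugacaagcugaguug
mmu-miR-223-3p: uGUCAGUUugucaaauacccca
The 3' libraries capture polyadenylated RNA, so neither strand was measured.

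The 4 libraries held 109713066 and 167542930 UMIs in KO and 95158639 and 181682389 UMIs in WT. The blood progenitors had medians of 24765 and 27416.5 UMIs per cell in KO and 48069.5 and 22507 in WT, against 20866 and 19567 in KO and 31340.0 and 19054.5 in WT for Cdh5+ Runx1-negative cells. WT replicate 1 stood apart in depth and, as shown further on, in the kind of blood progenitor it held: 46.4% of its 28 cells had a UMI of the red cell regulators Gata1 or Klf1. No cell barcode of a blood progenitor was shared between libraries, and 8 to 28 barcodes were shared by each pair of libraries overall. Xist was absent from the blood progenitors of KO replicate 1 and had 244 CPM in KO replicate 2, against 213 and 379 CPM in the WT libraries. Of the 243 cells, 21 were called doublets. The share called was 6.45% and 12.9% in KO and 7.14% and 8.33% in WT. Among all cells kept it was 5.21% and 8.58% in KO and 3.44% and 9.59% in WT.

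The thresholds cut through a continuum. There were 17 blood progenitors with exactly 2 UMIs of Spi1, Myb and Ptprc, and 62 Runx1-positive cells just outside with 1. There were 48 with 2 of the 5 platelet genes, and 39 cells that met the other criteria had 3 or more. The genes of the rule are given as a description: Runx1 had 164 and 132 CPM in the KO libraries, against 65.8 and 185 CPM in the WT libraries, and Spi1 had 158 and 126 CPM in the KO libraries, against 55.7 and 154 CPM in the WT libraries. Levels are in CPM, the UMIs of the gene scaled by the total UMIs, both summed over the cells of a set within a library. Runx1 and Spi1 were lowest in WT replicate 1, and KO and WT libraries overlapped. Myb was even across libraries, with 124 and 111 CPM in the KO libraries, against 116 and 127 CPM in the WT libraries. Ptprc had a UMI in 45 cells (18.5%), after a sort against its protein.

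The markers that the rule did not use were high in these cells. Ikzf2 (Helios, an Ikaros family transcription factor) had a UMI in 87.2% of the blood progenitors and in 5.97% of Cdh5+ Runx1-negative cells, and Nupr1, a small stress-response nuclear protein, in 49.8% and 0.859%. Nupr1 reached 166 CPM in KO replicate 1, against 29.99 CPM in KO replicate 2 and 36.2 and 48.8 CPM in the WT libraries. Both Spi1 and Myb were detected in 186 cells (76.5%), a share set in part by the rule, which counts both genes. The cells also kept the endothelial cadherin Cdh5, with a UMI in 221 cells (90.9%). Among these cells, chosen in part by Spi1, WT replicate 1 had Spi1 least often. It was detected in 87 of 93 and 54 of 62 cells in the KO libraries, against 18 of 28 and 57 of 60 cells in the WT libraries.

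Blood progenitors made up 2.13% of the cells kept in KO replicate 1 (95% Clopper-Pearson interval 1.73 to 2.61) and 0.962% in KO replicate 2 (0.738 to 1.23), against 1.18% in WT replicate 1 (0.783 to 1.70) and 0.784% in WT replicate 2 (0.599 to 1.01). These intervals cover counting error only. KO replicate 1 was high, and KO replicate 2 lay between the WT libraries. The mean was 1.55 ± 0.829% in KO and 0.980 ± 0.277% in WT (SD, n = 2 each). The difference of 0.568 percentage points did not exceed the spread between libraries (exact two-sided permutation p = 0.667, where 0.333 is the smallest possible). Without KO replicate 1 the difference turned to -0.0186 points. With every cell thinned to 5000 UMIs before the rule was applied, the shares were 0.535% and 0.240% in KO and 0.214% and 0.286% in WT (exact p = 0.667).

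Cells with Runx1 but fewer blood UMIs were more even between libraries. Cdh5+ Runx1+ cells with fewer than 2 blood UMIs were 3.08% and 2.96% of the cells kept in KO and 2.94% and 2.93% in WT, a difference of 0.0848 points (exact p = 0.333). Blood progenitors were 36.5% and 22.96% of all Runx1-positive cells with fewer than 3 platelet genes in KO, and 25% and 20% in WT (exact p = 0.667). With the cells that held Gata1 or Klf1 left out, the share was 2.02% and 0.884% in KO and 0.630% and 0.758% in WT, so that both KO libraries lay above both WT libraries (exact p = 0.333). The sort for CD31 and against CD45 sets these shares in part.

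**Figure D1:**
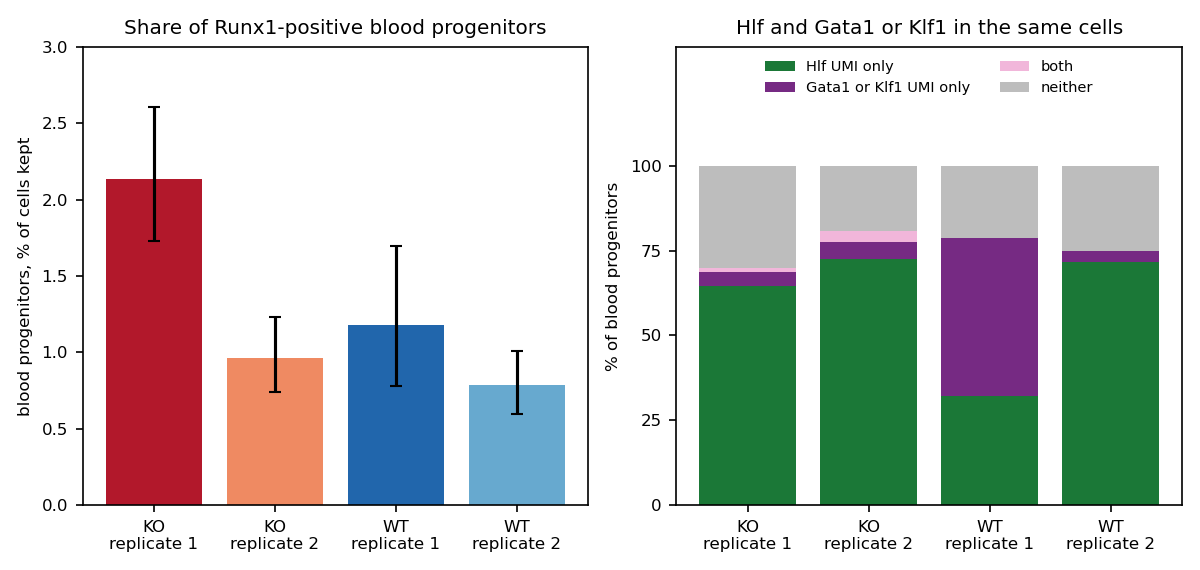
Left, the share of Runx1-positive blood progenitors among cells kept in each library, in percent, with 95% Clopper-Pearson intervals as error bars. Right, the percent of blood progenitors in each library with a UMI of Hlf only, of Gata1 or Klf1 only, of both or of neither. KO replicate 1 has the highest share at 2.13%, and WT replicate 1 is the library with 46.4% of cells in the Gata1 or Klf1 part.

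Against the Cdh5+ Runx1-negative cells of the same library, 121 of 11693 genes were at least 4-fold higher in all 4 libraries (1.03%) and 68 were at least 4-fold lower in all 4 (0.582%). Since the cells were chosen by their transcripts, this is a description without a test. Leaving out WT replicate 1, the library rich in Gata1 and Klf1, brought the first count to 201. Leaving out any 1 library raised this count, to between 124 and 201, since fewer libraries then had to pass. The 20 leading genes fall into a few roles, and mean folds below are on the CPM + 1 scale over the 4 libraries. Transcription factors among them were Gfi1 (37.4-fold), Ikzf2 (32.3-fold), Hlf (28.9-fold) and Ikzf1 (26.8-fold). Hlf marks blood stem cells and their forerunners, and Ikzf1 (Ikaros) is used across the blood lineages.

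Gfi1 had 86.5 and 34.7 CPM in the KO libraries, against 25.3 and 57.1 CPM in the WT libraries, with 0.130 to 0.547 CPM in Cdh5+ Runx1-negative cells. It was highest in KO replicate 1 and lowest in WT replicate 1. Hlf had 58.5 and 79.99 CPM in the KO libraries, against 14.5 and 100.1 CPM in the WT libraries, with 0.493 to 1.06 CPM in Cdh5+ Runx1-negative cells. Here WT replicate 2 was highest and WT replicate 1 lowest, so the WT libraries bracketed the KO libraries. Ikzf1 had 31.95 and 26.3 CPM in the KO libraries, against 60.8 and 44.9 CPM in the WT libraries, and was the one of the 3 that peaked in WT replicate 1.

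A further 6 of the leading genes encode signalling and actin-related proteins of blood cells. Rac2, a small GTPase used mainly by blood cells, had 33.9 and 49.5 CPM in the KO libraries, against 121 and 73.8 CPM in the WT libraries, with 0.185 to 0.435 CPM in Cdh5+ Runx1-negative cells. Both WT libraries exceeded both KO libraries, a pattern tested further on. Dock2, which activates Rac proteins, had 16.6 to 49.4 CPM over the libraries, and Was, the actin regulator altered in Wiskott-Aldrich syndrome, had 37.6 to 59.02 CPM. Coro1a (coronin, which binds actin) was the highest of the group in UMIs, with 199 and 172 CPM in the KO libraries, against 85.3 and 243 CPM in the WT libraries. Dok2, an adaptor of receptor kinases, was detected in 78.2% of the blood progenitors and 1.57% of Cdh5+ Runx1-negative cells, and Ptk2b, the kinase PYK2, in 62.1% and 0.808%.

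Surface and secreted molecules came next. Adgrg1, the adhesion receptor GPR56 that marks emerging blood clusters, was in 96.3% of the blood progenitors, at 153 to 213 CPM in blood progenitors against 3.99 to 5.32 CPM in Runx1-negative cells. Spn, the sialoprotein CD43 gained as blood cells emerge, was in 47.7% at 22.99 to 32.6 CPM, and the receptor Treml2 was in 47.7% at 20.98 to 37.2 CPM. Angpt1, a ligand of the receptor Tek, had 73.6 and 67.9 CPM in the KO libraries, against 16.6 and 99.4 CPM in the WT libraries, low in WT replicate 1. The remaining genes, Traf3ip3 and Mctp1, had 16.6 to 37.9 CPM and 8.68 to 44.3 CPM.

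Products of myeloid granules were also among the leading genes. Lyz2 (lysozyme) had 89.6 and 96.3 CPM in the KO libraries, against 22.4 and 93.02 CPM in the WT libraries, with 0.0580 to 0.364 CPM in Cdh5+ Runx1-negative cells. Prtn3 (proteinase 3) had 49.9 and 70.5 CPM in the KO libraries, against 19.5 and 80.2 CPM in the WT libraries, and Mpo (myeloperoxidase) had 34.3 and 109 CPM in the KO libraries, against 14.5 and 39.8 CPM in the WT libraries. WT replicate 1 was lowest for all 3 genes. Lyz2 was widespread, in 71.6% of the blood progenitors, while Prtn3 was in 45.7% and Mpo in 26.7%. In KO replicate 2 the Mpo value rests on 1 cell, which held 167 of its 208 UMIs.

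**Figure D2:**
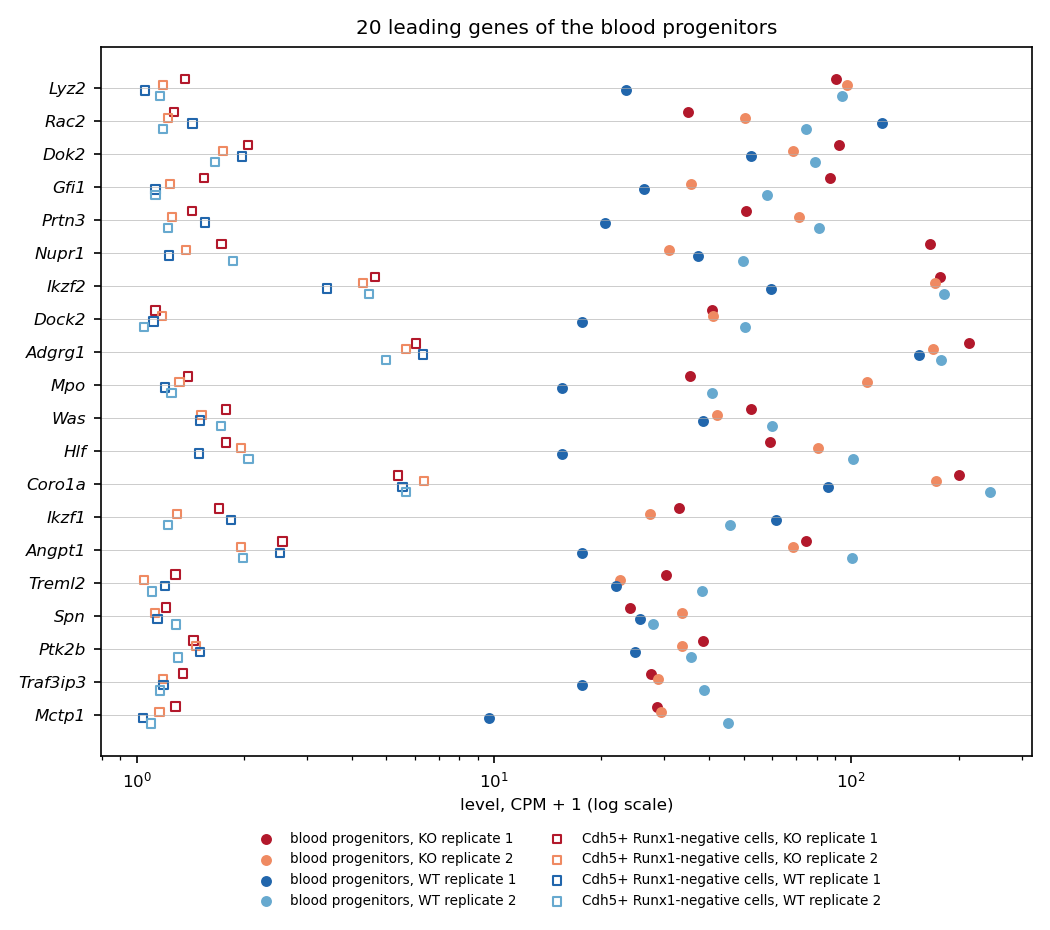
Levels of the 20 leading genes in CPM + 1 on a log axis, with filled circles for the blood progenitors and open squares for Cdh5+ Runx1-negative cells of each library. The circles lie to the right of the squares for every gene and library drawn, and WT replicate 1 is often the lowest circle.

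Promoter sequence was looked at for the leading genes because they were high in cells chosen by Runx1 and Spi1, whose proteins bind RUNX and ETS motifs. RefSeq promoter windows, from 250 bases before to 50 after the start, were matched for 14 of the 20 genes (18 windows, build GRCm38.p6). The RUNX core TGTGGT, on either strand, was in 2 of 18 windows (11.1%) and in 16.8% of all 32851 promoters. The ETS motif GAGGAAG, on either strand, was in 4 of 18 windows (22.2%) and in 13.6% of all promoters. Windows of 30 bases around the match are shown for a pair of genes with each motif, with the match in capitals.
Lyz2: caaatgtaggaaACCACAagctgttgggaa
Was: acttatttccctTGTGGTttattgtacttc
Prtn3: caaactggaagGAGGAAGtgggacccacag
Dock2: gagtttaaaaaGAGGAAGgaagtggggccc
Lyz2 lies at chr10:117282321-117282350 (minus strand, RUNX, found on the opposite strand of the gene), Was at chrX:8090511-8090540 (minus strand, RUNX), Prtn3 at chr10:79879561-79879590 (plus strand, ETS) and Dock2 at chr11:34783896-34783925 (minus strand, ETS). The shares describe these letters in these windows.

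The blood progenitors had lower endothelial levels but kept much of this RNA. The endothelial list summed to 1877 to 2801 CPM in the blood progenitors and 5984 to 6326 CPM in Cdh5+ Runx1-negative cells, and 14 of 16 of its genes were lower in all 4 libraries, against 23% of all genes with 10 or more UMIs in the blood progenitors. In these counts a listed gene with fewer UMIs is kept in the total and counted as neither higher nor lower. Kdr, the VEGF receptor, named after its values were seen, had 91.2 and 106 CPM in the KO libraries, against 63.6 and 120.0 CPM in the WT libraries, with 390.1 to 446 CPM in Cdh5+ Runx1-negative cells. Cldn5, a tight junction protein, had 223 to 266 CPM in blood progenitors against 627 to 732 CPM in Runx1-negative cells, and Egfl7, a secreted endothelial protein, 408 to 473 CPM in blood progenitors against 801 to 837 CPM in Runx1-negative cells. Cdh5 itself had 311 and 304 CPM in the KO libraries, against 177 and 241 CPM in the WT libraries, and was lowest in WT replicate 1. None of the 16 genes was 4-fold lower in all 4 libraries. The arterial list was lower by less, at 267 to 369 CPM in blood progenitors against 527 to 601 CPM in Runx1-negative cells, and the arterial connexin Gja5 was higher in all 4 libraries, at 34.001 to 38.4 CPM in blood progenitors against 20.2 to 32.7 CPM in Runx1-negative cells.

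The 10 genes with the lowest relative levels were of another kind. The embryonic globins Hba-x and Hbb-y had 3.16 to 43.6 CPM and 19.5 to 95.1 CPM in the blood progenitors, against 69.9 to 1233 CPM and 141 to 2743 CPM in Cdh5+ Runx1-negative cells. Globin levels in those cells were far higher in KO replicate 1 and WT replicate 1 than in the other libraries. Their part in this difference was not tested. Detection was wider in blood progenitors, at 41.6% against 25.3% of Runx1-negative cells for Hba-x and 62.1% against 44.1% for Hbb-y. At 5000 UMIs per cell, Hbb-y was in 38.7% and 9.68% of blood progenitors in KO and 28.6% and 20% in WT. In Runx1-negative cells it was in 32.9% and 9.27% in KO and 38.3% and 9.36% in WT. The Hba-x shares were 20.4%, 1.61%, 10.7% and 0% in that order, against 16.8%, 3.23%, 17.6% and 3.63%. Vwa1, a matrix protein, had 0.723 to 11.1 CPM in blood progenitors against 48.6 to 65.04 CPM in Runx1-negative cells. Kcne3, a potassium channel subunit, had 2.17 to 11.5 CPM in blood progenitors against 50.99 to 80.2 CPM in Runx1-negative cells, and Clec1b, the receptor CLEC-2, had 12.3 to 26.3 CPM in blood progenitors against 189 to 223 CPM in Runx1-negative cells. Cdh2 (N-cadherin) had 2.89 to 14.2 CPM in blood progenitors against 55.6 to 84.4 CPM in Runx1-negative cells. The rest were Fam167b and the uncharacterised D030007L05Rik, 5930412G12Rik and 9230102K24Rik, with means of 0.0976, 0.0887, 0.0951 and 0.0958 times the level in Cdh5+ Runx1-negative cells.

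Hemogenic endothelium genes were higher as a group than in Cdh5+ Runx1-negative cells. The list summed to 1007 to 1246 CPM in the blood progenitors and 584 to 603 CPM in Cdh5+ Runx1-negative cells, and 9 of 12 genes were higher in all 4 libraries, against 33% of all genes. Its median log2 difference was 1.73, against 0.10 over all genes. In Cdh5+ Runx1+ cells with fewer than 2 blood UMIs the list summed to 724 and 650 CPM in KO and 568 and 629 CPM in WT. In the cells with 3 or more platelet genes it was 1114 and 984 CPM in KO and 797 and 874 CPM in WT. The list was therefore not high in the blood progenitors alone. Neurl3, a marker of hemogenic endothelium in the mouse, had 113 and 79.99 CPM in the KO libraries, against 41.95 and 106 CPM in the WT libraries, with 3.58 to 4.55 CPM in Cdh5+ Runx1-negative cells. Cd44, the hyaluronan receptor, was even across libraries at 63.5 to 83 CPM in blood progenitors against 3.31 to 5.61 CPM in Runx1-negative cells. Gata2, a factor needed for stem cell emergence, had 40.5 to 69.3 CPM in blood progenitors against 18.5 to 20.7 CPM in Runx1-negative cells, and Kit, the stem cell factor receptor, 52.1 to 119 CPM in blood progenitors against 14.3 to 21.2 CPM in Runx1-negative cells. Lmo2 was not higher in all libraries, with 237 and 196 CPM in the KO libraries, against 394 and 257 CPM in the WT libraries, beside 315 to 329.7 CPM in Cdh5+ Runx1-negative cells.

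The blood stem cell list had 12 of 14 genes higher in all 4 libraries and a median log2 difference of 2.39. Its sum was 1497 and 1362 CPM in KO and 657 and 1537 CPM in WT, against 702 to 831 CPM in Cdh5+ Runx1-negative cells. Only WT replicate 1 was below its own Cdh5+ Runx1-negative cells. Procr (the protein C receptor EPCR, used to isolate stem cells) had 143 and 132 CPM in the KO libraries, against 91.9 and 158 CPM in the WT libraries, with 24.4 to 27.1 CPM in Cdh5+ Runx1-negative cells. Mecom (EVI1, a stem cell regulator) had 120.0 and 134 CPM in the KO libraries, against 75.9 and 153 CPM in the WT libraries, beside 50.5 to 75.3 CPM in Cdh5+ Runx1-negative cells, so it was high in both sets. Cd34, shared by endothelium and progenitors, had 505 and 492 CPM in the KO libraries, against 184 and 488 CPM in the WT libraries, and was lower than the 554 to 650.3 CPM of Cdh5+ Runx1-negative cells.

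Genes shared by all blood lineages were higher in the blood progenitors than in both endothelial sets, and lower than in the cells with 3 or more platelet genes. The pan-blood list summed to 608 to 837 CPM in the blood progenitors, 138 to 162 CPM in Cdh5+ Runx1+ cells with fewer than 2 blood UMIs, and 117 to 146 CPM in Cdh5+ Runx1-negative cells. In the 161 cells with 3 or more platelet genes it was 1190.0 and 1317 CPM in KO and 960.2 and 1156 CPM in WT, above the blood progenitors in every library. Against Runx1-negative cells there were 13 of 15 genes higher in all 4 libraries and 9 were 4-fold higher in all 4. Laptm5, a lysosomal protein of blood cells, had 70.9 to 156 CPM in blood progenitors against 20.2 to 29.6 CPM in Runx1-negative cells. Lcp1 (plastin) was the exception, at 39.1 to 86.6 CPM in blood progenitors against 83.8 to 105 CPM in Runx1-negative cells. The order of the first 3 sets held for single genes. Adgrg1 had 153 to 213 CPM, 9.44 to 50.03 CPM and 3.99 to 5.32 CPM in blood progenitors, Runx1+ cells with fewer blood UMIs and Runx1-negative cells, and in the same order Gfi1 had 25.3 to 86.5 CPM, 1.57 to 33.5 CPM and 0.130 to 0.547 CPM. In the Runx1+ cells with fewer blood UMIs both were highest in KO replicate 1, at 50.03 and 33.5 CPM.

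**Figure D3:**
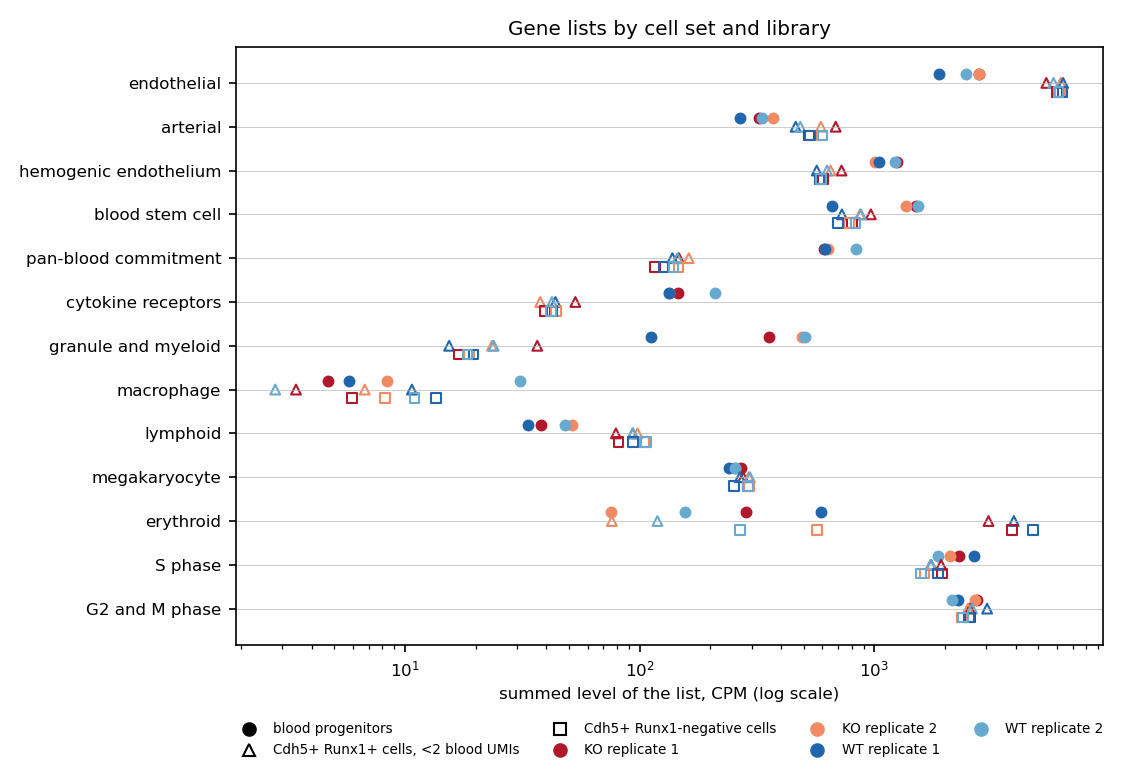
Summed level of 13 gene lists in CPM on a log axis, with filled circles for the blood progenitors, triangles for Cdh5+ Runx1+ cells with fewer than 2 blood UMIs and squares for Cdh5+ Runx1-negative cells. The pan-blood, cytokine receptor and granule lists separate the circles from both other sets in every library, and the endothelial list separates them in the other direction.

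Myeloid genes were well above the endothelial level. The granule and myeloid list summed to 357 and 489 CPM in KO and 112 and 506 CPM in WT, against 16.998 to 19.6 CPM in Cdh5+ Runx1-negative cells. In the cells with 3 or more platelet genes it was 490.1 and 561 CPM in KO and 301 and 479.6 CPM in WT, above the blood progenitors in 3 of 4 libraries. Of the list, 9 of 13 genes were higher in the blood progenitors than in Runx1-negative cells in all 4 libraries, and 3 had fewer than 10 UMIs. Alox5ap, which serves leukotriene synthesis, led it with 116 and 95.8 CPM in the KO libraries, against 26.8 and 126 CPM in the WT libraries. Ctsg and Ly6c2 had no UMI in the blood progenitors. Cytokine receptor genes summed to 134 to 209.8 CPM in blood progenitors against 39.4 to 43.9 CPM in Runx1-negative cells, with 8 of 11 higher in all 4 libraries. Csf2ra, the GM-CSF receptor chain, had 12.3 to 19.997 CPM in blood progenitors against 6.45 to 7.47 CPM in Runx1-negative cells, and Csf1r, the macrophage growth factor receptor, was in 4.12% of the blood progenitors.

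Lists of mature lineages had low sums in CPM, though not all lay below the Runx1-negative cells. The macrophage list summed to 4.68 to 30.8 CPM in blood progenitors against 5.95 to 13.6 CPM in Runx1-negative cells, and its defining genes C1qa, C1qb, C1qc and Timd4 had no UMI in the blood progenitors. Its highest value, in WT replicate 2, came mostly from 1 cell, which held all 28 UMIs of Cx3cr1 (17.96 CPM). The lymphoid list was 33.3 to 51.6 CPM in blood progenitors against 81.3 to 106 CPM in Runx1-negative cells, with Rag1 and Cd7 at 0. Its lower sum lay in Ebf1 and Lck. Ebf1 had 5.85 to 13.7 CPM in blood progenitors against 39.05 to 69.3 CPM in Runx1-negative cells. Lck had 5.13 to 9.74 CPM against 24.6 to 28.8 CPM. Ltb went the other way in all 4 libraries, at 6.62 to 16.7 CPM in blood progenitors against 1.61 to 2.93 CPM. Over the 5 listed genes with 10 or more UMIs, the median log2 difference was 0.29, against 0.10 over all genes. The mast and basophil list was higher in all 4 libraries, at 4.49 to 64.4 CPM in blood progenitors against 0.629 to 1.73 CPM in Runx1-negative cells. Of its genes, Mcpt8, Cma1 and Fcer1a were at 0. The sum was highest in WT replicate 1, where Gata1 made up 63.6 of 64.4 CPM.

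The megakaryocyte list, limited by the rule on platelet genes, summed to 239 to 269 CPM in blood progenitors against 253 to 292 CPM in Runx1-negative cells. The Runx1-negative sum lay mostly in Clec1b, at 189 to 223 CPM against 12.3 to 26.3 CPM in blood progenitors. Of the 14 genes, 7 were higher in all 4 libraries, against 33% of all genes, and 3 were 4-fold higher. The median log2 difference was 1.27, against 0.10 over all genes. Vwf, the clotting factor shared by endothelium and platelets, had 99.1 to 143 CPM in blood progenitors against 45.3 to 55.2 CPM in Runx1-negative cells, and Nrgn 29.99 to 62.2 CPM in blood progenitors against 2.52 to 2.99 CPM in Runx1-negative cells. The erythroid list summed to 283 and 75.8 CPM in KO and 591 and 155 CPM in WT, against 3848 and 568 CPM in KO and 4755 and 267 CPM in WT for Cdh5+ Runx1-negative cells. Klf1, the master regulator of red cell genes, followed another order, with 14.4 and 9.47 CPM in the KO libraries, against 153 and 7.70 CPM in the WT libraries.

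Division genes were moderately higher on the S phase side. The S phase list summed to 1870.1 to 2665 CPM in blood progenitors against 1582 to 1937 CPM in Runx1-negative cells, with 12 of 17 genes higher in all 4 libraries, such as the replication helicase subunit Mcm6 at 176 to 221 CPM in blood progenitors against 122 to 149.7 CPM in Runx1-negative cells. The G2 and M phase list was 2151 to 2737 CPM in blood progenitors against 2358 to 2569.8 CPM in Runx1-negative cells, and 2 of 15 genes were higher in all 4 libraries. Interferon-related genes summed to 306 to 625 CPM in blood progenitors against 262 to 271 CPM in Runx1-negative cells, carried by Ifitm3, a membrane protein that limits virus entry, at 158 to 428 CPM in blood progenitors against 120.5 to 138 CPM in Runx1-negative cells. NF-kB and inflammatory genes summed to 143 to 172 CPM in blood progenitors against 191 to 243 CPM in Runx1-negative cells, with Icam1 at 12.3 to 24.7 CPM in blood progenitors against 54.9 to 81.9 CPM in Runx1-negative cells. Dissociation response genes were 1319 to 1621 CPM in blood progenitors against 936 to 1489.8 CPM in Runx1-negative cells, with Jund at 359 to 497 CPM in blood progenitors against 216 to 319 CPM in Runx1-negative cells, and the part of that response in the other lists was not tested.

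Among genes of cell types outside the lineage, the keratin Krt18 was widespread. It was in 77.4% of the blood progenitors and 4.36% of Cdh5+ Runx1-negative cells, at 92.4 and 95.2 CPM in the KO libraries, against 44.8 and 101 CPM in the WT libraries. Krt18 made up most of the epithelial list, which summed to 45.6 to 148 CPM in blood progenitors against 11.3 to 18.5 CPM in Runx1-negative cells, with Pax2 at 0. The smooth muscle actin gene Acta2, singled out after its values were seen, was in 41.6% of the blood progenitors and 2.35% of Cdh5+ Runx1-negative cells, with 228 and 97.4 CPM in the KO libraries, against 13.02 and 94.9 CPM in the WT libraries. The germ cell list summed to 163 CPM in KO replicate 2 and to 3.62 to 5.85 CPM in the other libraries. The germ cell gene Dppa3 was in 3.70% of the blood progenitors. In KO replicate 2 it was in 6 cells (9.68%) with 186 UMIs, 81 of them in 1 cell. Each other library had 1 UMI in 1 cell. Cells of KO replicate 2 with 0, 25.1 and 37.8 CPM of the pan-blood list had 262, 301 and 365 CPM of the endothelial list. Such cells met the name blood progenitor less fully, and whether they held Dppa3 was not tested. The mesenchymal list was 25.02 to 85.3 CPM in blood progenitors against 25.8 to 125 CPM in Runx1-negative cells.

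The blood progenitors split into cells with Hlf and cells with Gata1 or Klf1, and few cells held both. Over the 4 libraries 157 cells had Hlf only, 22 had Gata1 or Klf1 only, 3 had both and 61 had neither. In KO, 60 and 45 cells had Hlf only and 4 and 3 had Gata1 or Klf1 only. In WT, the corresponding counts were 9 and 43, and 13 and 2. WT replicate 1 was the one library in which the cells with Gata1 or Klf1 outnumbered those with Hlf. With the same cells thinned to 5000 UMIs, Gata1 or Klf1 was found in 3.23% and 3.23% of the blood progenitors in KO and 28.6% and 1.67% in WT. In Cdh5+ Runx1-negative cells Hlf had a UMI in 1.75%, Gata1 in 0.339% and Klf1 in 0.650%. The split was made after the values were seen, as were the genes named for it, and its comparisons are a description.

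The cells with Hlf were higher in several stem cell genes. Mecom had 131 and 163 CPM in KO and 116 and 164 CPM in WT for the cells with Hlf, against 51.5 and 38.2 CPM in KO and 2.40 and 10.7 CPM in WT for the cells with Gata1 or Klf1. Over the libraries, Procr had 136 to 156 CPM in cells with Hlf against 0 to 64.3 CPM in cells with Gata1 or Klf1, Mycn 91.4 to 118 CPM in cells with Hlf against 0 to 25.7 CPM in cells with Gata1 or Klf1 and the homeobox gene Hoxa9 78.5 to 89.7 CPM in cells with Hlf against 0 to 10.7 CPM in cells with Gata1 or Klf1. Gfi1 had 34.7 to 101 CPM in the cells with Hlf and no UMI in the cells with Gata1 or Klf1, while its relative Gfi1b ran the other way at 2.69 to 9.86 CPM in cells with Hlf against 21.3 to 50.4 CPM in cells with Gata1 or Klf1. The cell cycle inhibitor Cdkn1c had 538 to 783 CPM in cells with Hlf against 4.80 to 250.8 CPM in cells with Gata1 or Klf1, and Cdh5 209.9 to 353 CPM in cells with Hlf against 9.61 to 219 CPM in cells with Gata1 or Klf1. Kdr did not follow Cdh5: it was lower in the cells with Hlf in KO replicate 1 and WT replicate 2, and higher in KO replicate 2 and WT replicate 1.

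The cells with Gata1 or Klf1 carried red cell precursor genes. Mt1, a metallothionein, had 4.06 and 3.78 CPM in KO and 13.4 and 4.62 CPM in WT for the cells with Hlf, against 418 and 565 CPM in KO and 766 and 479.9 CPM in WT for the cells with Gata1 or Klf1. Cpox, an enzyme of heme synthesis, had 7.40 to 20.3 CPM in cells with Hlf against 191 to 443 CPM in cells with Gata1 or Klf1, Car2 (carbonic anhydrase) 34.8 to 102 CPM in cells with Hlf against 199 to 420.3 CPM in cells with Gata1 or Klf1 and the Vel blood group gene Smim1 0 to 4.62 CPM in cells with Hlf against 76.4 to 207 CPM in cells with Gata1 or Klf1. All 4 genes were higher in the cells with Gata1 or Klf1 in every library. Myb was present in both, at 88.7 to 149.8 CPM in cells with Hlf against 128 to 229 CPM in cells with Gata1 or Klf1, and Rac2 at 22.05 to 77.7 CPM in cells with Hlf against 74.7 to 283 CPM in cells with Gata1 or Klf1. The cells with Gata1 or Klf1 were also deeper, with medians of 40115 and 39504 UMIs in KO and 66994 and 46881 in WT, against 24826 and 28539 in KO and 37888 and 22664 in WT for the cells with Hlf. The counts of 2 to 4 cells in 3 of the libraries limit these levels.

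A second axis ran within each library from endothelial to blood gene expression. The blood progenitors of each library were ordered by their summed endothelial list level and split into a low, a middle and a high tier of near-equal size, with 9 to 31 cells each. Arterial genes outside that list followed it: for the high against the low tier, Gja4 had 195 against 8.24 CPM and 274 against 1.45 CPM in the KO libraries and 287 against 0 CPM and 183 against 8.71 CPM in the WT libraries. Procr followed too, and for the high against the low tier it had 202 against 63.6 CPM and 223 against 26.2 CPM in the KO libraries and 326 against 0 CPM and 290.4 against 34.8 CPM in the WT libraries. Gata2, Gfi1, Mecom, Neurl3, Ikzf2 and Krt18 were likewise higher in the high tier in all 4 libraries. Gfi1 peaked in the middle tier in both KO libraries, at 124 and 54.6 CPM.

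Several blood genes ran against it, though not all. For the high against the low tier, Rac2 had 2.14 against 93.01 CPM and 12.8 against 82.9 CPM in the KO libraries and 0 against 171 CPM and 2.18 against 176 CPM in the WT libraries. Ikzf1 had, for the high against the low tier, 14.96 against 63.6 CPM and 11.2 against 53.8 CPM in the KO libraries and 3.30 against 83.8 CPM and 10.9 against 90.5 CPM in the WT libraries. Prtn3, Mpo, Myb, Myc, Dock2, Was and Spn were also lower in the high tier in all 4 libraries. Coro1a, Laptm5, Lcp1, Dok2 and the granule and myeloid list were lower in the high tier in 3 of 4 libraries and higher in WT replicate 1. Runx1, Spi1, Hlf, Kit and Lyz2 had no common direction, higher in the high tier in 2 of 4 libraries. In WT replicate 1 the low tier held Klf1 at 248 CPM and Spi1 at 9.31 CPM, against 0 and 112 CPM in the high tier. In the KO libraries Klf1 had 41.2 and 24.7 CPM in the low tier, against 2.14 and 0 CPM in the high tier. In WT replicate 2 Klf1 was at 0 in both tiers. The germ cell list of KO replicate 2 had 445 CPM in the low tier, against 3.19 CPM in the high tier. The part of such cells in the tier differences was not tested.

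For the high against the low tier, the pan-blood list summed to 366 against 908 CPM and 421 against 820.2 CPM in the KO libraries and 317 against 625 CPM and 456 against 1311 CPM in the WT libraries. The S phase list was lower in the high tier in all 4 libraries. Across cells, the Spearman correlation between the endothelial and the pan-blood list was -0.58 and -0.26 in KO (93 and 62 cells) and -0.43 and -0.58 in WT (28 and 60 cells). These points share a library and, within a cell, a total, and no p is given.

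**Figure D4:**
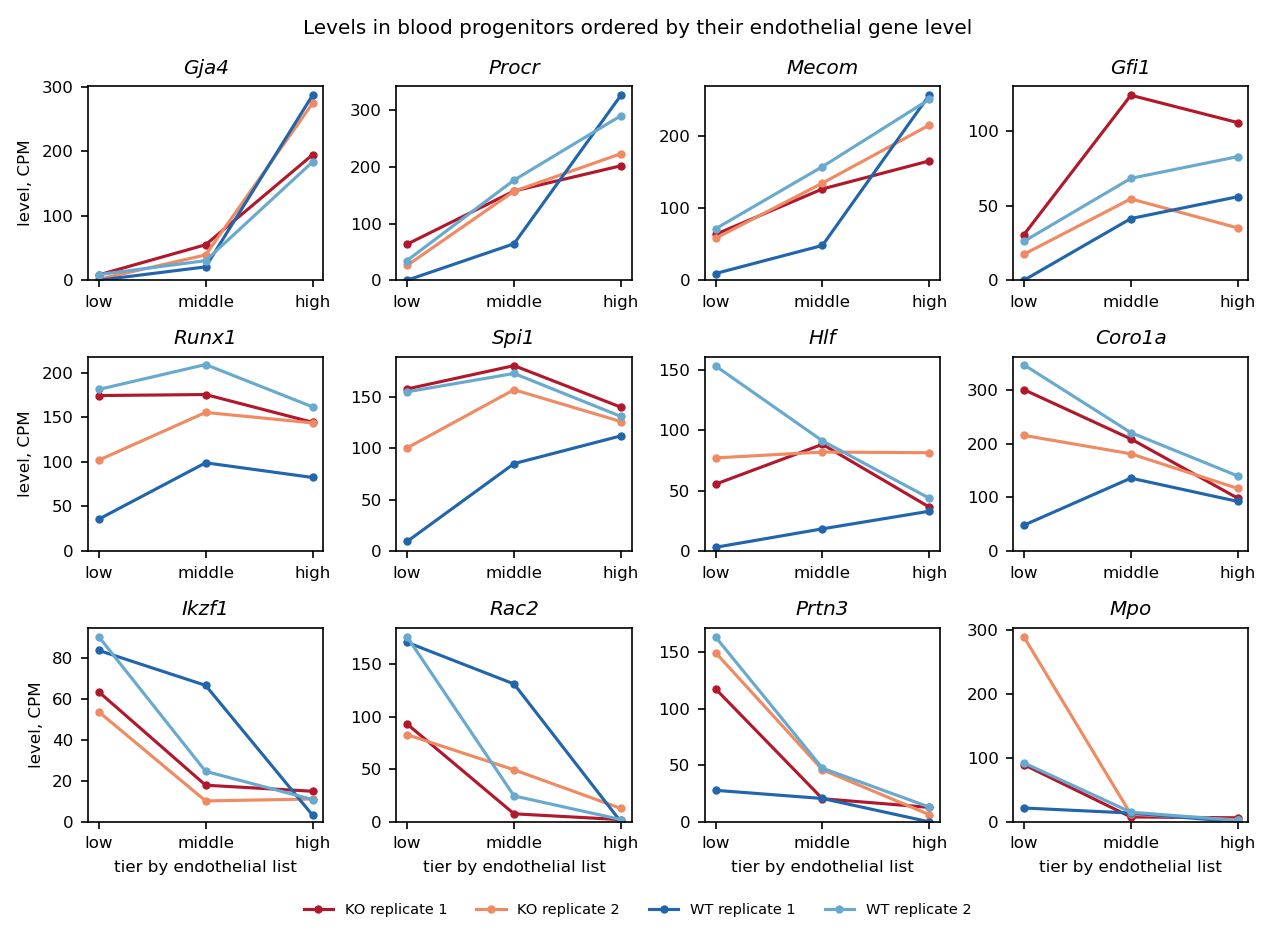
Level in CPM of 12 genes in the low, middle and high tier of blood progenitors by endothelial list level, with 1 line per library. Gja4, Procr and Mecom climb to the high tier in every library and Rac2, Ikzf1, Prtn3 and Mpo are lower in the high than in the low tier, while Runx1, Spi1 and Hlf have no common direction.

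One blood progenitor of KO replicate 2 had an eosinophil granule profile, singled out after its values were seen. It held all 104 UMIs of Prg3 and all 38 UMIs of Epx (eosinophil peroxidase) found in that library's blood progenitors. The libraries other than KO replicate 2 had no UMI of Prg3 or Epx in these cells.

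Between genotypes, no gene passed the test in the blood progenitors: 0 of 9283 genes were higher (0%) and 0 were lower (0%) at an adjusted p under 0.05 (edgeR quasi-likelihood), while 271 had an unadjusted p under 0.05, 144 higher and 127 lower. DESeq2 called 1 gene higher, Wdfy1, and 1 lower, Rps2. Leaving out 1 library moved the edgeR count to 32 and 3 when KO replicate 1 or 2 was left out and to 37 and 917 when WT replicate 1 or 2 was left out, where the lone library is assumed to vary as the other genotype does. Without the cells that held Gata1 or Klf1, 1 gene was called, Wdfy1. The genes named next have the smallest unadjusted p, and their values are given as such.

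Wdfy1, an endosomal phosphoinositide-binding protein at chr1:79702262-79776143 on the minus strand (GRCm38), had 61.96 and 48.4 CPM in the KO libraries, against 4.34 and 10.3 CPM in the WT libraries. Both KO libraries lay above both WT libraries, in 70 and 43 cells in KO and 6 and 13 cells in WT, with no cell above 7 UMIs. Its log2 difference was 2.84 (SE 0.389, edgeR adjusted p = 0.155). It passed in edgeR with any 1 library left out, and its adjusted p lay between 6.10e-14 and 0.9997 over all alternatives run. In Cdh5+ Runx1-negative cells, where it rose in KO, it had 49.5 and 51.9 CPM in the KO libraries, against 9.18 and 9.76 CPM in the WT libraries (log2 2.44, SE 0.135, edgeR adjusted p = 0.00885). The test did not separate the 2 differences (difference 0.44, SE 0.375, edgeR adjusted p = 0.984).

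Rps2, a protein of the small ribosomal subunit at chr17:24718116-24721929 on the plus strand, had 3179 and 3129 CPM in the KO libraries, against 6145 and 5975 CPM in the WT libraries. The groups did not overlap (log2 -0.99, SE 0.131, edgeR adjusted p = 0.155). Whether the counting split reads with near-identical processed copies of Rps2 was not tested. Its adjusted p lay between 9.88e-07 and 0.9997 over the alternatives, and it passed with any 1 library left out except KO replicate 2 (adjusted p = 0.764 in edgeR). Its values in Cdh5+ Runx1-negative cells were 3754 and 3288 CPM in the KO libraries, against 6125 and 6409 CPM in the WT libraries (log2 -0.81, SE 0.118, edgeR adjusted p = 0.291). Mettl23, a methyltransferase gene at chr11:116843278-116854263 on the plus strand, had 32.3 and 36.3 CPM in the KO libraries, against 101 and 69.9 CPM in the WT libraries (log2 -1.37, SE 0.283, edgeR adjusted p = 0.814), and the groups again did not overlap. Rnaset2b, an RNase with the near-identical copy Rnaset2a, had 1 and 1 UMIs in KO and 13 and 13 UMIs in WT (log2 -4.16, SE 0.788, edgeR adjusted p = 0.646).

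The other 2 genes with the smallest p and higher values in KO came down to single cells. Col1a1, a collagen chain of connective tissue, had 14.8 and 14.2 CPM in the KO libraries, against 1.45 and 1.28 CPM in the WT libraries, and 1 cell held 34 of 38 UMIs in KO replicate 1 and 1 cell 26 of 27 in KO replicate 2. Krt8, a keratin, had 9.74 and 19.5 CPM in the KO libraries, against 0.723 and 0.642 CPM in the WT libraries, with 23 of 25 and 37 of 37 UMIs in 1 cell each of the KO libraries. Rac2, the leading blood gene with both KO libraries below both WT libraries, averaged 41.7 ± 11.01 CPM in KO and 97.3 ± 33.2 CPM in WT (SD, n = 2 each) and did not pass (log2 -1.28, SE 0.322, edgeR adjusted p = 0.999).

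In Cdh5+ Runx1-negative cells 2 of 15686 genes rose in KO (0.0128%) and 2 fell (0.0128%), and 200 had an unadjusted p under 0.05 (edgeR). Wdfy1 and Npw, a neuropeptide gene, rose, and Rnaset2b and Mxra7, a gene named for matrix remodelling, fell. In the blood progenitors Npw had 6 and 9 UMIs in KO and 1 and 0 UMIs in WT, too few to be tested. Gm26873, an uncharacterised RNA, and Arl11, a small GTPase, had the next smallest p there and did not pass. Gm26873 had 2.34 and 1.05 CPM in KO and 0 and 0 CPM in WT in the blood progenitors, and Arl11 had 5.07 and 4.74 CPM in KO and 5.06 and 11.5 CPM in WT.

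Mxra7 was low in the blood progenitors of both genotypes. In these cells it had 11.3 and 7.89 CPM in the KO libraries, against 8.68 and 15.4 CPM in the WT libraries, and the groups overlapped (log2 -0.37, SE 0.437, edgeR adjusted p = 0.999). In Cdh5+ Runx1-negative cells it had 15.8 and 15.4 CPM in the KO libraries, against 63.6 and 65.7 CPM in the WT libraries (log2 -2.04, SE 0.126, edgeR adjusted p = 0.00907). The difference between the 2 genotype effects was 1.70 (SE 0.372) and did not pass (edgeR adjusted p = 0.318). Mxra7 lies at chr11:116803062-116828046, next to Mettl23.

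The genotype effect in the blood progenitors was set against that in Cdh5+ Runx1-negative cells in a single fit with the library as a block. Of 14837 genes, 1 differed in the higher direction (0.00674%) and 0 in the lower direction (0%), and 683 had an unadjusted p under 0.05 (edgeR). The gene was Col1a1 (difference 4.11, SE 0.690, edgeR adjusted p = 0.0401), which rests on the single cells named above. It was not called without WT replicate 1 (difference 2.31, adjusted p = 0.923) or without the blood progenitors with Dppa3 or Pou5f1, and its adjusted p lay between 7.48e-10 and 0.995 over the alternatives. The next genes did not pass. Hspb1, a small heat shock protein, had 35.8 and 30.5 CPM in the KO libraries, against 4.34 and 10.9 CPM in the WT libraries (difference 2.08, edgeR adjusted p = 0.128), with 73 of its 92 UMIs in 1 cell of KO replicate 1. Meg3, a maternally expressed long RNA, had 86.1 and 85.2 CPM in the KO libraries, against 33.99 and 29.5 CPM in the WT libraries (difference 1.06, edgeR adjusted p = 0.264), beside 321 and 228 CPM in KO and 235 and 196 CPM in WT in Cdh5+ Runx1-negative cells. On the lower side Oit3 and Mrap had differences of -2.80 and -4.00 (edgeR adjusted p = 0.692 for both).

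**Figure D5:**
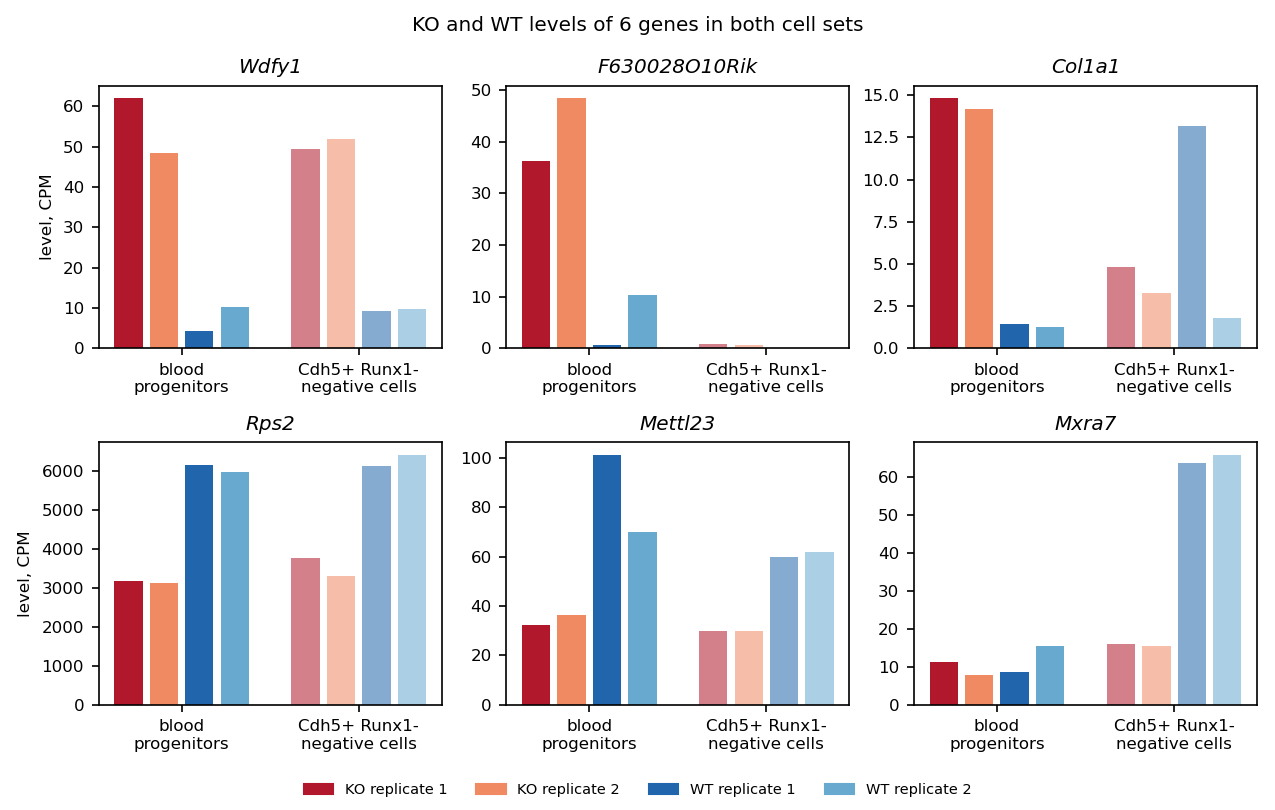
Levels in CPM of 6 genes in each library, with the blood progenitors left and Cdh5+ Runx1-negative cells right in each panel. Wdfy1, Rps2 and Mettl23 separate KO from WT in both cell sets, Mxra7 in the Cdh5+ Runx1-negative cells, and Col1a1 in the blood progenitors, where single cells hold it.

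The transcript that spans miR-223, F630028O10Rik (chrX:96239926-96243636, plus strand, GRCm38), was also read. In the blood progenitors it had 36.2 and 48.4 CPM in the KO libraries, against 0.723 and 10.3 CPM in the WT libraries. Both KO libraries were higher, without passing (log2 2.82, SE 0.619, edgeR adjusted p = 0.999). The transcript was detected in 49.5% and 58.1% of the blood progenitors in KO and 3.57% and 18.3% in WT, and in 17.2% and 17.7% against 0% and 5% at 5000 UMIs per cell. In Cdh5+ Runx1-negative cells it had 0.755 and 0.697 CPM in the KO libraries, against 0 and 0.0342 CPM in the WT libraries. In the cells with 3 or more platelet genes it exceeded the blood progenitors in every library. There it had 145 and 192 CPM in the KO libraries, against 5.65 and 20.6 CPM in the WT libraries. The labels do not place the deletion within the transcript, so a 3' count does not check whether the microRNA is lost.

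A list of 19 genes described as miR-223 targets in other systems held none that passed. In the blood progenitors 10 of 18 tested genes had a higher estimate in KO and 8 a lower one, with a median log2 difference of 0.13 against -0.02 over all genes, of which 0% passed. Cebpb, a myeloid transcription factor, had 196 and 123 CPM in the KO libraries, against 61.5 and 155 CPM in the WT libraries (log2 0.51, SE 0.404, edgeR adjusted p = 0.999), and Mef2c had 224 and 231 CPM in KO and 107 and 303 CPM in WT. Stmn1, which binds tubulin, had 1314 and 1083 CPM in KO and 829 and 1220.2 CPM in WT. In each of the 3 genes WT replicate 1 was the lowest library, and KO and WT overlapped.

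No gene of the other lists passed either. In the granule and myeloid list 5 of 7 tested genes had a higher estimate in KO, with a median log2 difference of 0.42. For the blood stem cell list it was 10 of 13, with a median of 0.23, and for the endothelial list 15 of 16, with a median of 0.37. In the pan-blood list 9 of 13 had a lower estimate, with a median of -0.33. Over all genes tested, 4355 of 9283 had a higher estimate in KO. WT replicate 1 also held the most cells with Gata1 or Klf1, whose part in these estimates was not tested.

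The makeup of the blood progenitors was compared in 36 shares of cells with a UMI of a gene or list, of which the smallest adjusted p was 1 (exact two-sided permutation, Benjamini-Hochberg). Hlf was found in 65.6% and 75.8% of the cells in KO and 32.1% and 71.7% in WT, and Gfi1 in 72.0% and 58.1% in KO and 39.3% and 58.3% in WT. Kit was found in 76.3% and 83.9% in KO and 85.7% and 88.3% in WT, and Ptprc in 14.0% and 19.4% in KO and 10.7% and 28.3% in WT. The genotypes did not overlap in 5 of the 36 shares, Kit among them, each with an unadjusted exact permutation p of 0.333, the smallest possible. Mki67, a marker of dividing cells, was found in 78.5% and 72.6% in KO and 82.1% and 73.3% in WT.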

How the data were processed

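Endothelial cells (CD31+ CD45-) from embryonic day 10.5 AGM were profiled in 4 single-cell libraries, 2 per genotype. The deposited matrices hold raw UMI counts for 31053 genes, made with Cell Ranger 3.1.0 per the file headers. Seurat 4 is named in the submitters' processing notes without a role. The sources used here do not name the genome build. Coordinates were looked up by gene ID in GRCm38.

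Counts were summed per library over the blood progenitors and over Cdh5+ Runx1-negative cells. Genotypes were tested with edgeR 4.0.16 (R 4.3.3, limma 3.58.1; TMM scaling, filterByExpr, robust quasi-likelihood fit, Benjamini-Hochberg adjustment over all genes tested, threshold 0.05), and DESeq2 1.42.0 was an alternative. The difference between genotype effects was fitted with library as a block. The sums per library were tested on simulated data with known changes. Shares were compared by exact permutation. Genes with 10 or more UMIs in the blood progenitors were described against Runx1-negative cells, with a pseudocount of 1 CPM. Doublets were called within each library by comparing cells with 2 simulated doublets per cell over 50 neighbours, at an expected 0.8% per 1000 barcodes (scikit-learn 1.9.0, an own version of the Scrublet scheme), and kept in the main values. For thinned values each cell was drawn down to 5000 UMIs and shallower cells were left out.

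The members and the 21 gene lists were chosen with earlier results of these data known. Named genes were the genes of the rule, up to 20 higher and 10 lower with the largest mean fold in the same direction in all 4 libraries and a UMI in at least 20% of cells, the 3 genes with the smallest p in each direction where fewer passed, and up to 4 genes per list with the highest level. Some genes that this rule names are not reported here. Rac2, Kdr, Acta2, Mcm6, Hoxa9, Mycn, Cdkn1c, Mt1, Cpox, Car2, Smim1, Prg3 and Epx were given further values after theirs were seen. Alternatives were the other scaling, filter and tool, the replicate block, each library left out, and other limits of the cell rule.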

Additional observations from a re-analysis of the deposited data

Results flagged for a closer look

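The genotype effect on Col1a1 differed between the blood progenitors and the Cdh5+ Runx1-negative cells, with a log2 difference of 4.11 (SE 0.690, adjusted p = 0.0401 in edgeR). In the blood progenitors it had 38 and 27 UMIs in KO and 2 and 2 UMIs in WT. In each KO library 1 cell held most of them, 34 of 38 and 26 of 27 UMIs. Without WT replicate 1 the difference was 2.31 and did not pass (edgeR adjusted p = 0.923).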

How the results depend on the processing

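The share of blood progenitors, KO minus WT, lay between -0.0186 and 1.15 percentage points as each library was left out, and turned negative without KO replicate 1. The share with Cdh5 lay between -0.591 and 17.7 points and was -0.888 without the cells with Gata1 or Klf1. With Ptprc it lay between -11.7 and 5.95, with Hlf between -0.968 and 38.6, and with Gata1 or Klf1 between -39.7 and 3.39. With all cells thinned to 5000 UMIs before the rule was applied, which leaves fewer blood progenitors, the differences turned to 5.03 for Ptprc, 3.52 for Kit, -17.97 for Gfi1 and -2.26 for Hlf. With the same blood progenitors thinned after the rule, they were 3.41 for Ptprc, -5.10 for Kit, 3.64 for Gfi1 and 7.10 for Hlf. The cause was not tested.

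Genes differing between genotypes in the blood progenitors, 0 in the report, were 2 with DESeq2, 49 with no filter on low counts, 8 in cells with Cdh5, 10 in cells with no platelet gene, 1 with the rule applied at 5000 UMIs and 1 without the cells with Gata1 or Klf1, and lay between 3 and 917 with 1 library left out. In Cdh5+ Runx1-negative cells, with 4 in the report, they were 33 with DESeq2, 41 with no filter, 2 at 2000 genes and under 5% mitochondrial UMIs, and between 4 and 25 with 1 library left out. Genes whose genotype effect differed between the cell sets, 1 in the report, were 0 with DESeq2 size factors, 24 with no filter, 2 with doublets removed, 60 in cells with Cdh5, 15 without the cells with Gata1 or Klf1, 4 without those with Dppa3 or Pou5f1, and between 14 and 1107 with 1 library left out. Genes at least 4-fold higher in the blood progenitors, 121 in the report, lay between 124 and 201 with 1 library left out, and were 49 with the rule applied at 5000 UMIs and 13 with a pseudocount of 10 CPM. With the replicate number of the labels as a block, 1 gene was called in the blood progenitors, Rps2, and 151 in Cdh5+ Runx1-negative cells. Same-numbered libraries deviated together with a correlation of 0.112 in the blood progenitors and 0.561 in the Runx1-negative cells, and nothing in the labels pairs them.

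Of the named genes' values under alternatives, 476 kept their direction and side of the threshold, 68 newly passed, 7 no longer passed and 55 moved by more than the spread between libraries. The remaining 2 turned: the difference for Oit3 was 0.00115 with doublets removed, and that for Mrap was 4.20 without the cells with Gata1 or Klf1. Settings that leave out cells with Gata1, Klf1, Dppa3 or Pou5f1, and the shares with Hlf, Gata1 or Klf1, were chosen after seeing the data. The number of cells limits the levels of WT replicate 1, with 28 blood progenitors, and of the cells with Gata1 or Klf1 only, of which there were 22.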

Other observations

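Some genes named between genotypes lie near each other in GRCm38. Mxra7 (chr11:116803062-116828046) and Mettl23 (chr11:116843278-116854263) are neighbours, and in Cdh5+ Runx1-negative cells Mxra7 fell in KO. Npw (chr17:24657330-24658457) and Rps2 (chr17:24718116-24721929) lie close to each other on chromosome 17. The labels do not give the strain of the embryos.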
